A study of Mus musculus with 12 samples.

Results

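The genes described here are 41 genes of DNA damage signalling and repair, taken by symbol from a gene count matrix of 24062 genes measured by RNA-Seq in 12 mouse hearts. All 41 were in the matrix and all 41 passed the filter on low counts in each comparison. With earlier results of these data known, they were split by general knowledge into 15 genes linked to DNA replication and 26 others. The 26 are labelled cell-cycle-independent below, and whether each of them is so in these hearts was not tested. Products of the 15 are expected mostly in proliferating cells, and those of the 26 also in cells that do not divide. Hearts came from 2-month-old WT mice and mice homozygous for the Lemd2 c.T38>G allele (KI/KI), and, at postnatal day 1 (P1), from Lemd2-floxed mice and mice with a cardiac deletion of Lemd2 (cKO), with 3 mice in each group. LEMD2 is a protein of the inner nuclear membrane. The KI/KI allele replaces a leucine with arginine, is carried together with a silent substitution and is present in every tissue. The cKO was made with Cre driven by the Myh6 promoter on an allele with a floxed first exon, so that cells other than cardiomyocytes keep the gene, and the floxed controls carry no Cre. Whole hearts were used, so that fewer cells of a type and less RNA per cell cannot be told apart. The study describes controls as littermates of the mutants but the labels do not say which mice shared a litter. The p-values set each difference between groups against the spread between these hearts.

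Double-strand breaks are bound by the MRE11-RAD50-NBN complex, which activates the kinase ATM, whereas stretches of single-stranded DNA activate ATR. The kinases modify histone H2AX and recruit MDC1, the ubiquitin ligases RNF8 and RNF168, and 53BP1. Breaks are then joined end to end, or copied from the sister chromatid by homologous recombination, a route open only after replication, whereas damaged bases, nicks and crosslinks have pathways of their own. Cardiomyocytes leave the cell cycle soon after birth, and in adult hearts most are in a non-dividing state.

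Library totals ranged from 37063669 to 44789753 counts. Levels are given below as CPM (counts scaled to a common library size), scaled by the trimmed mean of M-values (TMM) over all 12 hearts, or per kilobase of exon (RPKM) where genes are compared with each other. The floor of 3 counts was at most 0.0965 CPM in any heart. Lemd2 stood at 32, 34.8 and 32.9 CPM in WT and at 25.6, 25.2 and 24.8 CPM in KI/KI hearts. It stood at 24.3, 25 and 25.4 CPM in floxed and at 6.59, 13.1 and 11.3 CPM in cKO hearts, below all floxed hearts. Summed over 10 cardiomyocyte markers, the level was 95000 to 108000 CPM in WT, 75600 to 96700 in KI/KI, 55200 to 63800 in floxed and 47500 to 53500 CPM in cKO hearts. Heart cKO 4 had almost no Y-linked transcripts, unlike the other 11 hearts, and hearts KI/KI 5 and cKO 6 stood apart from the others of their group in the genes described here.

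The control hearts give the starting level of each gene at both ages. Per length of exon, Parp1, which senses DNA nicks, had the highest level in both control groups, at 29.0 ± 3.62 RPKM in P1 floxed and 26.6 ± 1.41 RPKM in adult WT hearts (SD, n = 3). Nbn, a subunit of the break-sensing complex, followed at 18.3 ± 0.513 and 15.7 ± 1.35 RPKM. The mean levels of the 15 replication-linked genes ran from 0.831 to 13.0 RPKM in floxed hearts, with a median of 1.98 RPKM, and those of the 26 others from 0.866 to 29.0 RPKM, with a median of 6.25 RPKM. In adult WT hearts the median was 0.442 RPKM over the replication-linked genes and 4.65 RPKM over the others. Of the 15, Topbp1 (5.92 RPKM), H2afx (5.74 RPKM) and Msh6 (4.82 RPKM) lay above the median of the others. Exo1, an exonuclease that resects DNA ends, had the lowest level of all 41 genes in both control groups, at 0.831 ± 0.309 RPKM in floxed and 0.0525 ± 0.0134 RPKM in WT hearts. Exons were taken from the GENCODE M21 annotation, in which 15 of the 41 genes share exon bases with another gene of the matrix. The shared part was above 10% of the exon length for 3 genes, Lig3 (27.9%), Trp53bp1 (22.1%) and Fanci (13.4%), each with a neighbour on the opposite strand, and the strand setting of the counting is not given in the sources used here.

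**Figure D1:**
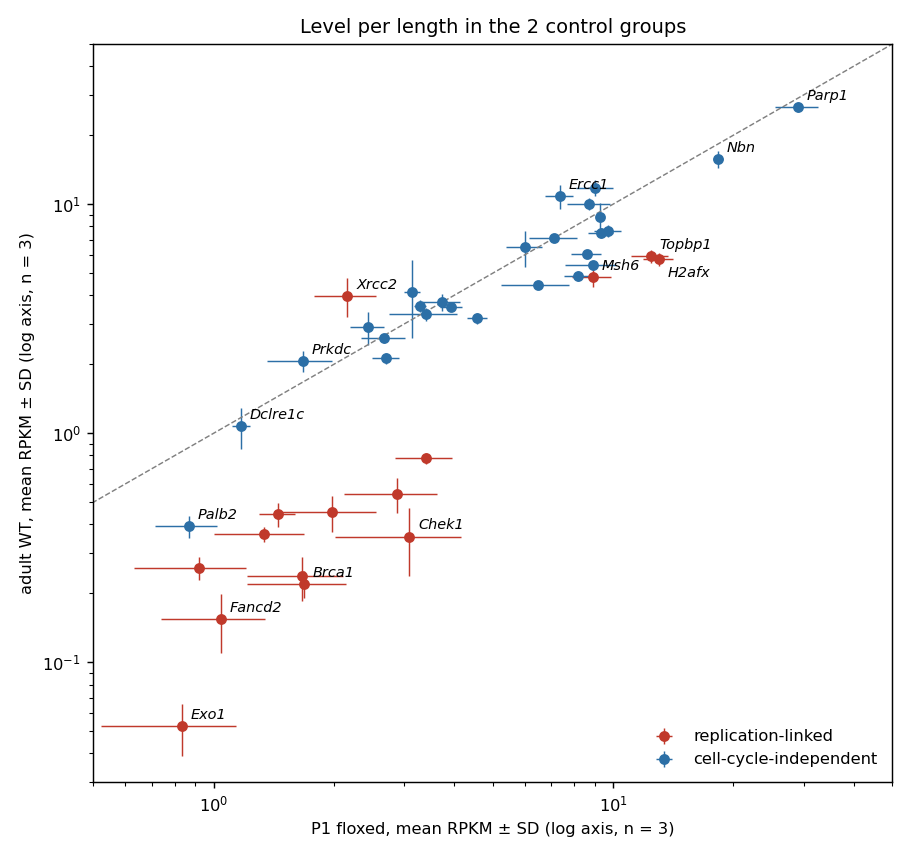
Mean level per length of exon of each of the 41 genes in P1 floxed hearts (x axis, RPKM, log scale) and adult WT hearts (y axis, RPKM, log scale), with the SD of 3 hearts as bars, red for replication-linked and blue for cell-cycle-independent genes. Most blue points lie near the dashed line of equal level, whereas 14 of the 15 red points lie below it and Xrcc2 lies above it.

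The first comparison set adult WT against P1 floxed hearts and asked which repair genes differ between the dividing neonatal heart and the adult heart. Of the 41 genes, 24 were lower in the adult and 3 were higher at an adjusted p under 0.05. Over all genes tested 33.4% were called lower and 31.8% higher. The 24 consisted of 14 of the 15 replication-linked genes and 10 of the 26 others. The median log2 fold change was -2.14 over the replication-linked genes and -0.1 over the others, against -0.04 over all genes tested. The split was made with earlier results of these data known, so these medians are a description and not a test. At more than 2-fold, 14 members were lower, 13 of them replication-linked, and this was 13.9% among all genes. Age and mouse line differ together between these groups and cannot be told apart. The test used edgeR's quasi-likelihood method with Benjamini-Hochberg adjustment over 15183 genes. With library totals in place of TMM the median of all genes moved by -0.4, and 1 member, Xrcc2, remained called higher.

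Promoter windows from RefSeq (GRCm38.p6, from 250 bases before to 50 after a transcription start) were searched for the letters by which E2F, the factor that switches on genes for replication, is commonly recognised, because 14 of the 15 replication-linked members were lower together. The letters were TTTCCCGC, TTTCGCGC, TTTGCCGC and TTTGGCGC on both strands. A window was found for 32 of the 41 genes and for 11 of the 15 replication-linked genes. Rad50, Nbn, H2afx, Rif1, Prkdc, Xrcc2, Fancd2, Exo1 and Wrn had none. The letters occurred in 4 of these 11 and in 3 of the 21 other members with a window (Chek2, Mdc1 and Xrcc6), and in 2.26% of all 32851 windows. Members were counted by gene and the background by window, here and for the second element below, so the units differ. The 4 replication-linked sites are printed 5′ to 3′ along the gene, each with 11 bases on either side and the match in capitals. For Brca2 and Topbp1 the letters lie on the opposite strand, so the capitals show their reverse complement. The Brca2 site lies at chr5:150522442-150522471 (plus strand, 168 bases before the start on which its window was built, at 150522621, and 156 bases after the outermost RefSeq start of the gene), the Bard1 site at chr1:71103163-71103192 (minus strand, 209 bases before the start of its window, at 71102972, and 40 bases before the outermost start), the Msh6 site at chr17:87975054-87975083 (plus strand, 15 bases after the start, which is also the outermost one, and within an annotated exon) and the Topbp1 site at chr9:103305187-103305216 (plus strand, 129 bases before the start of its window, at 103305327, and 31 bases after the outermost start).
Brca2: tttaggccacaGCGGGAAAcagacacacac
Bard1: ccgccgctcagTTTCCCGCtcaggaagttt
Msh6: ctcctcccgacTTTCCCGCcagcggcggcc
Topbp1: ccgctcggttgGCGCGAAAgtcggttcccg
The element bound by the complex that acts late in the cell cycle, searched as TTTGAA and TTCGAA on both strands, occurred in Bard1, Atr, Rnf8 and Apex1 and in 19.2% of all windows. None of these matches overlapped an E2F match. A match is a description of the letters and not a measured binding site.

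Among the sensors and kinases, Chek1, the kinase that holds the cell cycle when replication stalls, stood at 9.23, 9.93 and 16.8 CPM in floxed and at 1.9, 1.04 and 1.2 CPM in WT hearts. The groups did not overlap, and the log2 fold change of adult over P1 was -3.14 (SE 0.35, adjusted p = 0.000129). Topbp1, which activates ATR at stalled forks, went from 60.2, 62 and 72.7 CPM to 33.1, 30.4 and 29.2 CPM, a log2 fold change of -1.08 (SE 0.09, adjusted p = 2.91e-05). Rad50, the scaffold of the break-sensing complex, stood at 45.8, 40.5 and 39.8 CPM in floxed and at 25.9, 23.7 and 25.6 CPM in WT hearts, with a log2 fold change of -0.75 (SE 0.09, adjusted p = 0.000124). Its partners differed less. Nbn had a log2 fold change of -0.23 (SE 0.08, adjusted p = 0.0291), a call lost without WT 2, WT 3, floxed 1 or floxed 3, and Mre11a, the nuclease of the complex, one of -0.04 (SE 0.12, adjusted p = 0.78). The apical kinases Atm and Atr were not called, with log2 fold changes of 0.25 (adjusted p = 0.119) and 0 (adjusted p = 0.975), nor was Chek2, the kinase downstream of ATM (0.41, adjusted p = 0.177).

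Of the 6 genes that act on chromatin at breaks, 4 fell. H2afx, which encodes histone H2AX, stood at 17.3, 17 and 19.8 CPM in floxed and at 8.33, 8.18 and 7.32 CPM in WT hearts, a log2 fold change of -1.19 (SE 0.11, adjusted p = 3.82e-05). Mdc1, the scaffold that reads modified H2AX, had a log2 fold change of -0.71 (SE 0.11, adjusted p = 0.000726), Trp53bp1, which encodes 53BP1, one of -0.51 (SE 0.08, adjusted p = 0.000672), and Rnf168 one of -0.35 (SE 0.08, adjusted p = 0.00627). Rnf8 (-0.15, adjusted p = 0.138) and Rif1, the partner of 53BP1 (0.1, adjusted p = 0.523), were not called.

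In homologous recombination all 11 genes changed, 10 lower and 1 higher. Exo1 stood at 5.57, 4.65 and 9.21 CPM in floxed hearts and at 0.514, 0.305 and 0.408 CPM in WT hearts, which rest on 16, 10 and 15 reads. Its log2 fold change was -3.99 (SE 0.44, adjusted p = 0.000113). Brca1, which promotes resection of DNA ends, stood at 9.16, 9.37 and 14.6 CPM in floxed and at 1.58, 1.53 and 1.22 CPM in WT hearts (log2 fold change -2.95, SE 0.27, adjusted p = 3.89e-05). Its partner Bard1 had a log2 fold change of -2.14 (SE 0.26, adjusted p = 0.000171), Brca2, a mediator of recombination, one of -1.72 (SE 0.14, adjusted p = 1.87e-05), and Palb2, which joins BRCA1 to BRCA2, one of -1.14 (SE 0.22, adjusted p = 0.00208). The recombination factors Rad54l (-2.81, SE 0.31, adjusted p = 0.000104) and Rad51ap1 (-2.42, SE 0.27, adjusted p = 0.000119) and the helicase Blm (-2.14, SE 0.16, adjusted p = 1.33e-05) fell as well. Rad52, which anneals single strands (-0.55, SE 0.16, adjusted p = 0.0147), and the helicase Wrn (-0.35, SE 0.1, adjusted p = 0.0128) changed by less than 2-fold, and Wrn lost its call without WT 2 (-0.31, adjusted p = 0.0583).

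Xrcc2, a recombination gene placed with the replication-linked genes, went the other way. It stood at 7.56, 6.3 and 9 CPM in floxed and at 14.9, 16.3 and 11 CPM in WT hearts, so that every WT heart lay above every floxed heart. Its log2 fold change was 0.87 (SE 0.18, adjusted p = 0.0032), and 0.46 (adjusted p = 0.0318) with library totals. Xrcc2, Ercc1 and Xrcc5 all lost their call with the level of Y-linked genes as a covariate. That level was itself higher in every WT heart (6.13 to 6.22, mean log2 CPM) than in every floxed heart (6.07 to 6.11). The covariate thus runs along with the groups compared, so this fit cannot decide on these calls. Xrcc2 lies on chromosome 5 (25689814 to 25705797, GRCm38.p6) and shares no exon bases with another gene of the matrix.

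With TMM, genes of end joining, the route open in cells outside the cycle, stayed close to their neonatal level. Library totals moved the median of all genes by -0.4 in this comparison. Xrcc5, a subunit of the Ku ring that binds DNA ends, was the only one of 6 to be called, at 23.2, 20.5 and 25.4 CPM in floxed and 30.4, 32.7 and 27.6 CPM in WT hearts. Its log2 fold change was 0.38 (SE 0.1, adjusted p = 0.0118) with TMM, and it turned to -0.02 (adjusted p = 0.869) with library totals. The other 5 had log2 fold changes between -0.13 for Dclre1c, the end-trimming nuclease Artemis, and 0.31 for Prkdc, the kinase recruited by Ku. In base excision and nick repair, Apex1, the endonuclease that cuts at lost bases (-0.53, SE 0.13, adjusted p = 0.00735), and Lig3, which seals nicks (-0.32, SE 0.08, adjusted p = 0.00708), were lower, and Parp1, Xrcc1 and Ogg1 were not called, with log2 fold changes from -0.14 to 0.12.

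All 5 genes of crosslink, mismatch and excision repair changed, 4 lower and 1 higher. The crosslink genes Fancd2 (-2.77, SE 0.33, adjusted p = 0.000156), Fanci (-1.9, SE 0.24, adjusted p = 0.000221) and Fanca (-1.83, SE 0.28, adjusted p = 0.000649) fell more than Msh6, which recognises mismatches behind the fork (-0.89, SE 0.11, adjusted p = 0.000214). Ercc1, a subunit of the nuclease of excision repair, stood at 13, 12.2 and 14.3 CPM in floxed and at 20.4, 21 and 16.8 CPM in WT hearts, with a log2 fold change of 0.55 (SE 0.11, adjusted p = 0.00307) that came to 0.15 (adjusted p = 0.219) with library totals.

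**Figure D2:**
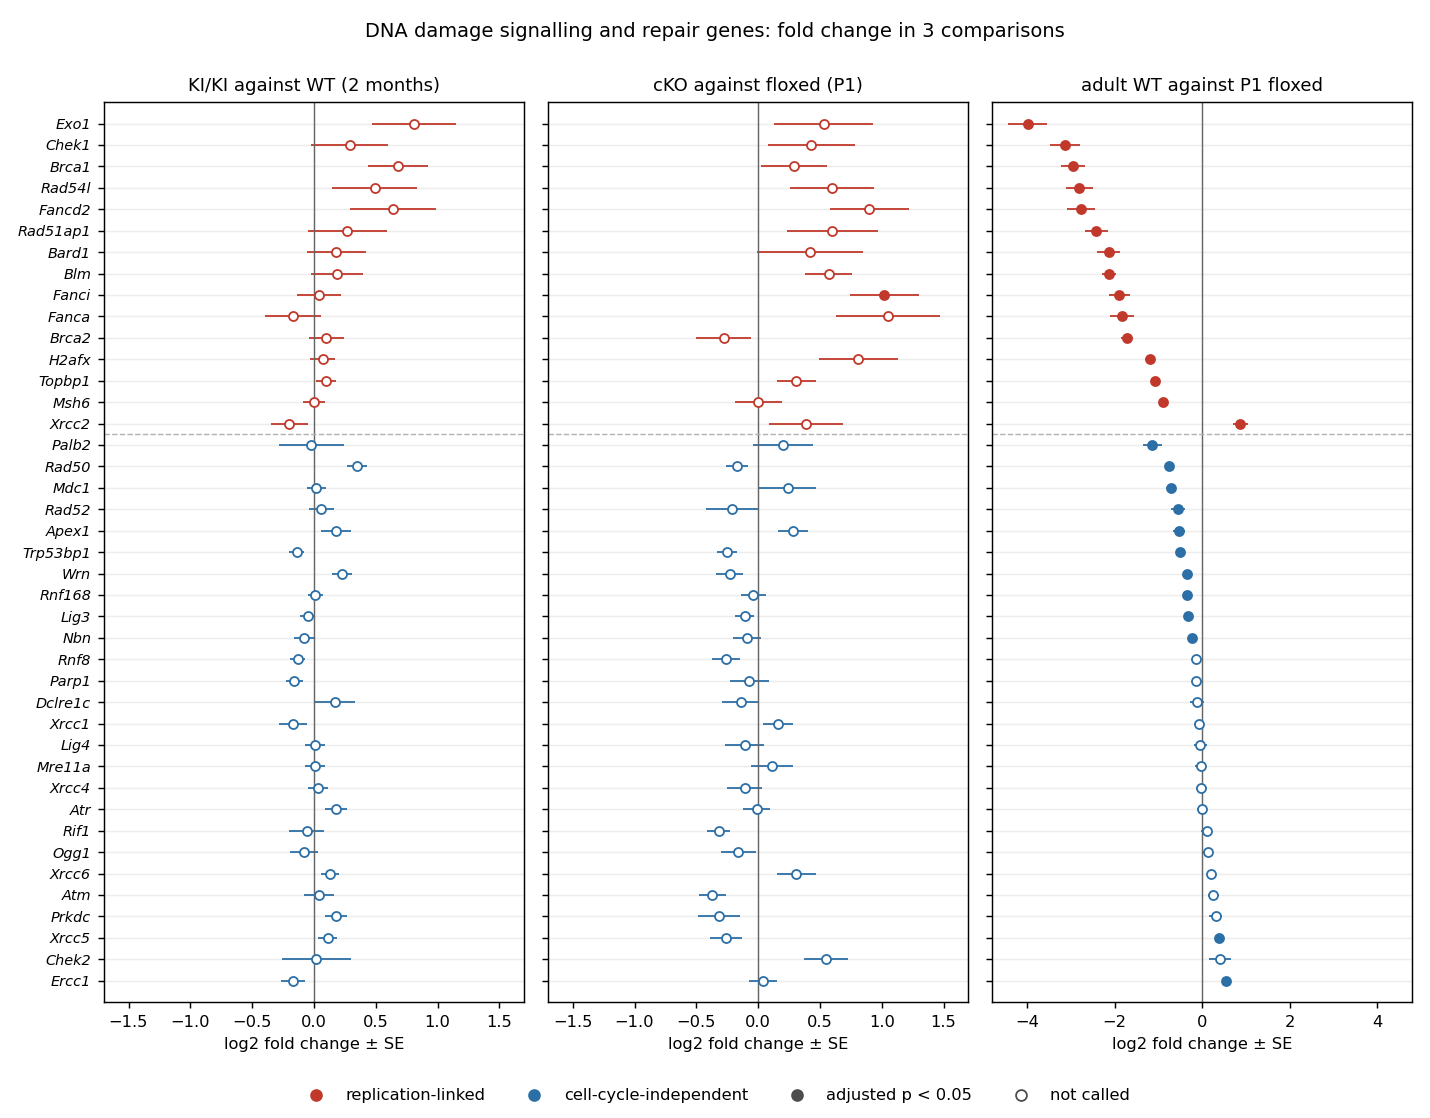
Log2 fold change of the 41 genes in KI/KI against WT (left), cKO against floxed (middle) and adult WT against P1 floxed hearts (right, wider axis), with the standard error as bars, red for replication-linked and blue for cell-cycle-independent genes, and filled where the adjusted p is under 0.05. No point is filled on the left, Fanci alone in the middle, and 27 on the right.

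Lists of other genes of the same pathways were described beside these values. The counts are to be read against the 33.4% of all genes called lower and 31.8% called higher in the adult. In 22 genes of replication and S phase all 22 were lower in the adult, with a median log2 fold change of -1.87, and in 20 mitosis markers 19 were lower, with a median of -3.35. Of 16 further homologous recombination genes 12 were lower and none higher, among them Rbbp8 (-1.44), which starts resection, Rad51c (-2.23) and Gen1 (-2.52), which cuts recombination junctions. Of 11 further Fanconi anaemia genes 6 were lower and 1 higher, among them Fancm (-1), a translocase at stalled forks, and of 12 checkpoint genes 5 were lower and none higher, led by Clspn (-3.38), the CHEK1 adaptor. Of 7 further end-joining genes that could be tested 4 were higher and 1 lower. Polq, the polymerase of the alternative end-joining route, was the largest of these, at 4.65, 4.32 and 7.08 CPM in floxed and 19.8, 27 and 26.9 CPM in WT hearts (log2 fold change 2.19, SE 0.21, adjusted p = 5.52e-05). Of 14 further base excision genes 3 were higher and 6 lower, with Polb, the polymerase that fills single gaps, at 0.61 and Neil3, a glycosylase, at -3.45. Among the marker lists, 8 of 10 cardiomyocyte and 7 of 8 macrophage markers were higher and 5 of 8 fibroblast markers lower in the adult, and their part in these values was not tested.

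The second comparison asked whether these genes differ between cKO and floxed neonatal hearts. Only the cKO mice carry Cre, so Cre and loss of Lemd2 cannot be told apart here. In cKO against floxed hearts 1 of the 41 genes, Fanci, was called higher and none lower, where 9.32% of all 15317 genes tested were called higher and 7.57% lower. For 8 of the 41 genes the cKO and floxed hearts did not overlap, on the scale of these 6 hearts, against 39.8% of all genes. At an unadjusted p under 0.05 there were 9 members, against 34.6% of all genes, and DESeq2 called 6 higher and 2 lower, against 13.1% and 10.6% of the genes it tested. The median log2 fold change was 0.53 over the replication-linked genes, of which 13 of 15 were positive, and -0.11 over the others, of which 18 of 26 were negative. Without heart cKO 6 the replication-linked median was 0.1 and the median of the others -0.16.

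Fanci, whose product forms a clamp with FANCD2 on crosslinked DNA, stood at 5.78, 5.61 and 8.61 CPM in floxed and at 9.66, 12.1 and 19.1 CPM in cKO hearts. The groups did not overlap, and the log2 fold change was 1.02 (SE 0.28, adjusted p = 0.048). Leaving out cKO 6 gave 0.71 (adjusted p = 0.0565), and of the 6 fits that left out 1 heart only the one without cKO 4 kept the call. Fancd2 stood at 5.6, 4.11 and 7.42 CPM in floxed and 7.29, 9.36 and 15.6 CPM in cKO hearts, so that the lowest cKO heart lay just under the highest floxed heart on this scale and just above it on the scale of the 6 P1 hearts, and its log2 fold change of 0.9 (SE 0.32) did not pass (adjusted p = 0.0942). Fanca, part of the core complex upstream of both, had a log2 fold change of 1.05 with a larger error (SE 0.42, adjusted p = 0.127).

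In the other replication-linked genes heart cKO 6 stood apart from cKO 4 and 5. H2afx stood at 17.3, 17 and 19.8 CPM in floxed and at 19, 26.5 and 50.3 CPM in cKO hearts 4, 5 and 6, for a log2 fold change of 0.81 (SE 0.32, adjusted p = 0.122), or 0.34 without cKO 6. Blm stood at 18.8, 24.7 and 31.5 CPM in cKO against 16.4, 14.3 and 19.7 CPM in floxed hearts (0.57, SE 0.19, adjusted p = 0.0877). Heart cKO 6 held the highest value of the 3 cKO hearts in all 15 replication-linked genes and in 20 of the 26 others. Over the 15, the median ratio to the floxed mean was 2.24 in cKO 6, 1.26 in cKO 5 and 0.885 in cKO 4. These hearts lay above every floxed heart in 14, 6 and 1 of the 15, and in 12, 4 and 3 of the 26 others. The share over all genes is not given here, so these counts are a description. The exception among the 15 in cKO 6 was Brca2, at 17.3 CPM there and 8.66 and 12.9 CPM in cKO 4 and 5. Its floxed hearts stood at 15.1, 14.3 and 17.4 CPM.

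**Figure D3:**
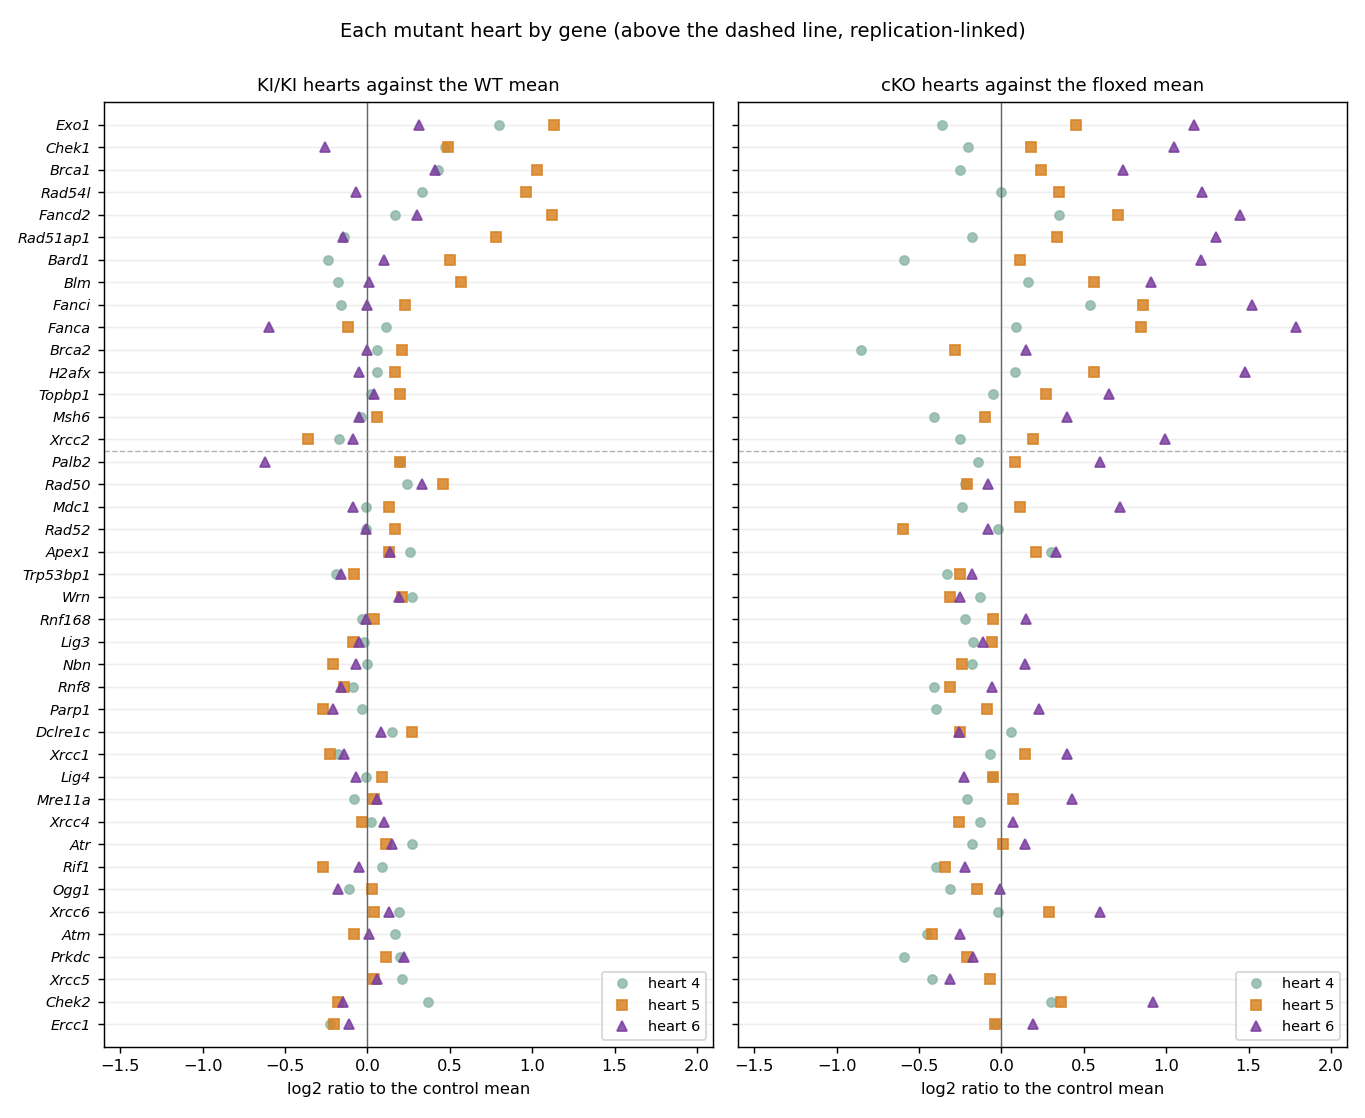
Log2 ratio of each mutant heart to the mean of its 3 control hearts, for the KI/KI hearts (left) and the cKO hearts (right), with genes in the same order as in the plot of fold changes and the replication-linked genes above the dashed line. Heart cKO 6 (triangles) lies to the right of the other cKO hearts in all 15 replication-linked genes, and heart KI/KI 5 (squares) to the right of the other KI/KI hearts in 13.

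In each cKO heart the S-phase genes had a median close to that of the replication-linked genes, whereas the mitosis markers did not. The median ratio to the floxed mean over 22 replication and S-phase genes was 0.82 in cKO 4, 1.23 in cKO 5 and 2.19 in cKO 6, next to 0.885, 1.26 and 2.24 for the replication-linked repair genes. Mitosis markers stood higher, at 1.45, 1.78 and 3.67. In 17 of the 20 every cKO heart lay above all floxed hearts, where 39.8% of all genes had groups that did not overlap. By the test, 9 of 20 mitosis markers were called higher and none of the 22 S-phase genes was, with 3 of those at an unadjusted p under 0.05. Of 8 macrophage markers 4 were called higher, where 9.32% of all genes were. The 8 summed to 95.9 to 108 CPM in floxed and 118 to 220 CPM in cKO hearts. The largest sum was in cKO 4 and the smallest in cKO 6. Fibroblast markers had 3 of 8 called higher, and smooth muscle and pericyte markers 3 of 6 higher and 1 lower. Cardiomyocyte markers had 4 of 10 called lower, where 7.57% of all genes were. The part of cell division and of other cell types in the repair values was not tested.

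**Figure D4:**
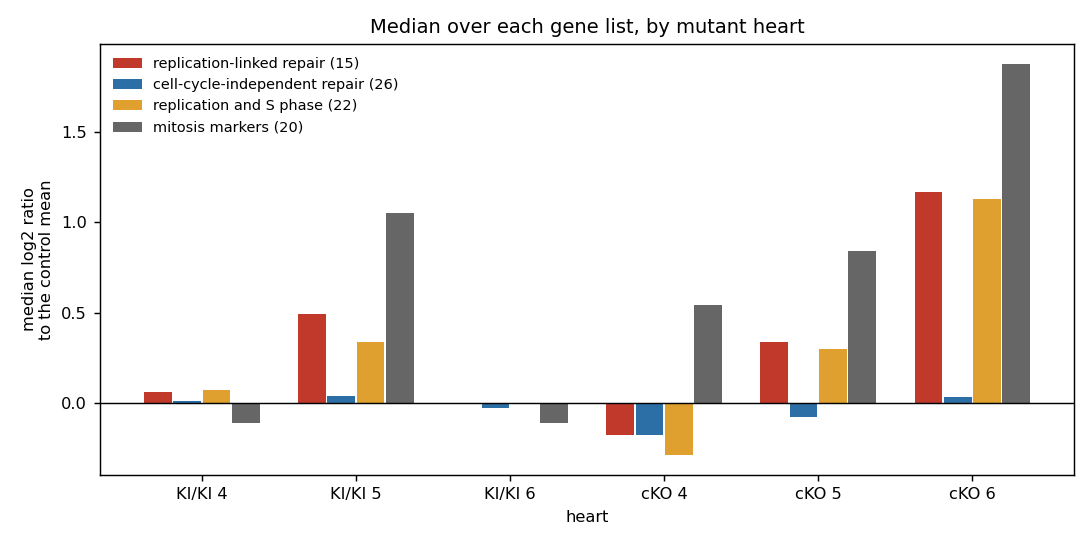
Median log2 ratio to the control mean in each mutant heart over the replication-linked repair genes (red), cell-cycle-independent repair genes (blue), replication and S-phase genes (yellow) and mitosis markers (grey), where bars start at 0. Red and yellow bars are of similar height in each heart, blue bars stay between -0.18 and 0.04, and grey bars reach 1.88 in cKO 6.

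Among the 26 genes labelled cell-cycle-independent the members closest to the threshold were mostly lower. Atm stood at 25.8, 21.6 and 25.4 CPM in floxed and at 17.8, 18.1 and 20.5 CPM in cKO hearts, without overlap, with a log2 fold change of -0.37 (SE 0.11, adjusted p = 0.0541). Rif1 stood at 51.1, 46 and 56.4 CPM in floxed and at 38.8, 40.3 and 43.8 CPM in cKO hearts, also without overlap, with a log2 fold change of -0.32 (SE 0.09, adjusted p = 0.0569). Trp53bp1 stood at 87.3, 74.5 and 85.9 CPM against 65.7, 69.4 and 73.1 CPM, a log2 fold change of -0.25 (SE 0.08, adjusted p = 0.0837). Thus all 3 cKO hearts lay below all floxed hearts in these genes, and cKO 6 was in each the nearest to the floxed hearts. None passed in the main test, and Atm and Rif1 passed without cKO 6 (adjusted p = 0.038 and 0.046). Chek2 stood at 6.77, 7.3 and 7.36 CPM in floxed and at 8.82, 9.19 and 13.5 CPM in cKO hearts, again without overlap, and its log2 fold change of 0.55 (SE 0.18) had an adjusted p of 0.0755. Apex1 was at 5.3 to 5.95 CPM in floxed and 6.56 to 7.12 CPM in cKO hearts (0.28, SE 0.12, adjusted p = 0.154). Rad50 had a log2 fold change of -0.17 (SE 0.09, adjusted p = 0.229), and its highest cKO heart, at 39.9 CPM, met its lowest floxed heart, at 39.8 CPM.

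The remaining 20 cell-cycle-independent members had log2 fold changes between -0.32 for Prkdc and 0.31 for Xrcc6, the other Ku subunit. End joining had 5 of 6 genes below 0. The smallest adjusted p among these 20 was 0.156, for Rnf8 (-0.26, SE 0.11).

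Of 22 genes that p53 induces after damage 9 were called higher and 1 lower in cKO hearts, against 9.32% and 7.57% of all genes. Their median log2 fold change was 0.21, with 14 above and 8 below 0, and they were not tested against the repair genes. Cdkn1a, which encodes the cycle inhibitor p21, stood at 18.3, 21.8 and 18.7 CPM in floxed and at 69.4, 64.7 and 61.2 CPM in cKO hearts (log2 fold change 1.73, SE 0.11, adjusted p = 0.00481). Plk2 (1.43, SE 0.11), Btg2 (1.32, SE 0.12) and Zmat3 (0.84, SE 0.12), also p53 targets, were called with adjusted p of 0.00481, 0.00481 and 0.00887. In these 4 genes cKO 6 was the lowest of the cKO hearts and still above all floxed hearts. Of the 4, Zmat3 alone lost its call without a heart, P1 floxed 1. Gadd45a was the gene called lower, named after its values were seen, at 4.38, 4.37 and 3.9 CPM in floxed and 2.56, 2.94 and 3.09 CPM in cKO hearts (-0.56, SE 0.15, adjusted p = 0.0482). No fit with 1 heart left out is given for it, and 19.5% of its exon bases are shared with E230016M11Rik on the opposite strand.

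In the wider repair lists the calls in cKO hearts went both ways. Their counts are to be read against the 9.32% of all genes called higher and 7.57% called lower. Of 4 further mismatch repair genes 3 were lower, Msh3 (-0.47, SE 0.09, adjusted p = 0.0178), Mlh3 (-0.55, SE 0.13, adjusted p = 0.0332) and Pms1 (-0.58, SE 0.15, adjusted p = 0.0415). Msh3 stood at 26.8, 28 and 25.2 CPM in floxed and at 18.5, 18.9 and 20.3 CPM in cKO hearts, without overlap. Fam175a, which encodes the Abraxas scaffold of a BRCA1 complex (-0.55, SE 0.1, adjusted p = 0.0152), Rev3l, the catalytic subunit of a translesion polymerase (-0.35, SE 0.07, adjusted p = 0.0192), and Smug1, a uracil glycosylase (-0.39, SE 0.1, adjusted p = 0.0353), were lower. Polq, at 4.65, 4.32 and 7.08 CPM in floxed and 8.72, 9.88 and 17.6 CPM in cKO hearts (1.16, SE 0.31, adjusted p = 0.0441), Neil2, a glycosylase (0.74, SE 0.18, adjusted p = 0.0359), Ddb1, part of a damage-binding ligase (0.33, SE 0.09, adjusted p = 0.0469), and the cycle phosphatase Cdc25a (0.41, SE 0.11, adjusted p = 0.0469) were higher. Each of these 10 calls was lost in 2 to 5 of the 6 fits that left out 1 heart, and all 10 were lost without P1 floxed 1. None of the 16 further homologous recombination genes or the 11 further Fanconi anaemia genes was called, and 3 and 2 of them had an unadjusted p under 0.05, where 34.6% of all genes did.

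The third comparison asked whether these genes differ between adult KI/KI and WT hearts. No member was called by edgeR at an adjusted p under 0.05, and 0% of all 14592 genes tested were. At an unadjusted p under 0.05 there were 4 of the 41 members, against 16.2% of all genes. DESeq2 called 1 member, Rad50, and 3.54% of the genes it tested, and limma-voom called none of either. For 8 members the groups did not overlap, 6 higher and 2 lower, against 22.4% of all genes. The median log2 fold change was 0.18 over the replication-linked genes and 0.02 over the others.

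Rad50 came nearest. It stood at 25.9, 23.7 and 25.6 CPM in WT and at 29.7, 34.5 and 31.5 CPM in KI/KI hearts, higher in 3 of 3 mutant hearts than in any WT heart. The log2 fold change was 0.35 (SE 0.08), the unadjusted p 0.00354 and the adjusted p 0.201, and over the alternatives the adjusted p ran from 0.0309 to 0.518. Wrn, at 15, 14.2 and 15.9 CPM in WT and 18.1, 17.4 and 17.2 CPM in KI/KI hearts, had a log2 fold change of 0.23 (SE 0.08, adjusted p = 0.261). Trp53bp1 was lower in every KI/KI heart, at 59.3, 59.6 and 56.3 CPM in WT and 51.2, 55.4 and 52.2 CPM in KI/KI hearts, by a log2 fold change of -0.14 (SE 0.06, adjusted p = 0.307). These differences were larger than the spread between the hearts but did not pass the adjustment over all genes. Atr (0.18, SE 0.09) and Rnf8 (-0.13, SE 0.06) each had an adjusted p of 0.353, with groups that did not overlap, and Parp1 had a log2 fold change of -0.16 (SE 0.07, adjusted p = 0.332).

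Brca1 had the smallest p of the replication-linked genes, at 1.58, 1.53 and 1.22 CPM in WT and 1.94, 2.95 and 1.91 CPM in KI/KI hearts (log2 fold change 0.68, SE 0.24, adjusted p = 0.275). Exo1 stood at 0.514, 0.305 and 0.408 CPM in WT and 0.715, 0.895 and 0.506 CPM in KI/KI hearts (0.81, SE 0.34, adjusted p = 0.309), which is 10 to 37 reads per heart. Heart KI/KI 5 was the highest of the mutant hearts in 13 of the 15 replication-linked genes, with a median of 1.41 times the WT mean, whereas KI/KI 4 and 6 had medians of 1.04 and 0.999 times. The S-phase genes had 1.27 times in KI/KI 5 against 1.05 and 0.998, and the mitosis markers 2.07 times against 0.924 and 0.925. Without KI/KI 5 the replication-linked median log2 fold change was 0.01. Summed fibroblast markers stood at 2000 to 2400 CPM in WT and 2440 to 4760 CPM in KI/KI hearts, and their part in these values was not tested. Genes that p53 induces had 15 of 22 log2 fold changes above 0, with none called and 3 at an unadjusted p under 0.05.

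**Figure D5:**
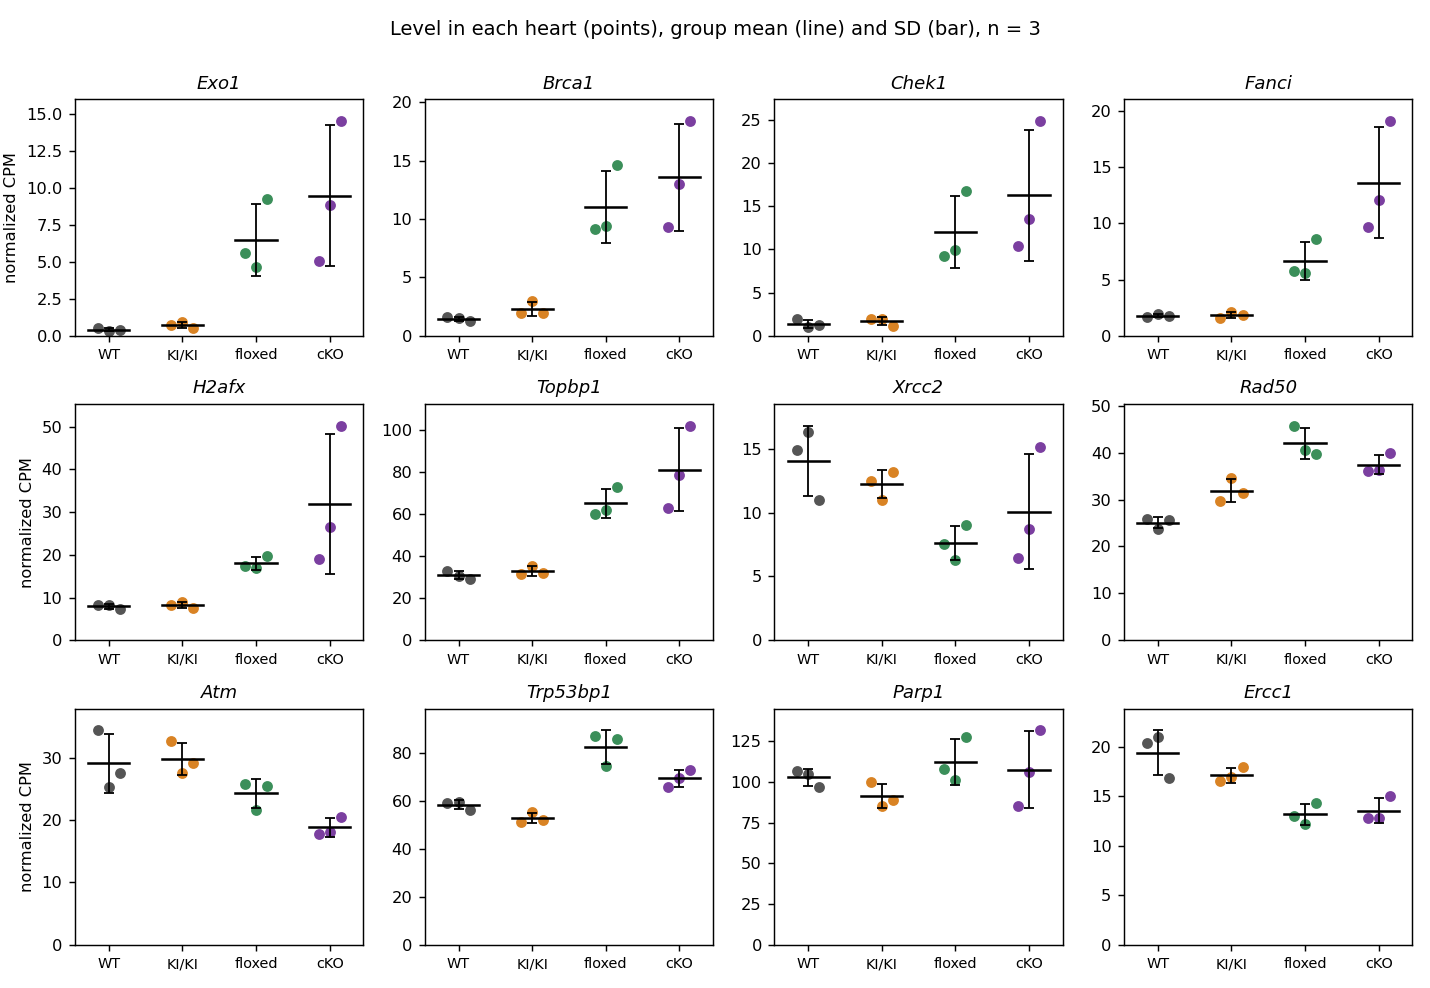
Level in CPM of 12 of the genes in each heart (points) of the 4 groups, with the group mean (line) and SD (bar) of 3 hearts, on axes that start at 0. Replication-linked genes such as Exo1, Brca1 and Chek1 are near the bottom of the axis in both adult groups, and the highest cKO point of H2afx, at 50.3 CPM, is heart cKO 6.

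The difference between the models, the cKO effect minus the KI/KI effect, was tested across all 12 hearts. It was called for 1 of the 41 genes, Rad50, which is close to the 2.43% called among all 15729 genes tested. Rad50 had log2 fold changes of 0.35 in KI/KI and -0.17 in cKO hearts, and the difference was -0.51 (SE 0.12, adjusted p = 0.04995), just under the threshold. Of the 12 fits that left out 1 heart 10 lost the call, and only those without P1 floxed 3 or cKO 6 kept it. Wrn had 0.23 and -0.23, with a difference of -0.45 (SE 0.13, adjusted p = 0.0818). Fanci (0.99, SE 0.42), Prkdc (-0.49, SE 0.21), Atm (-0.4, SE 0.17) and Xrcc5 (-0.36, SE 0.16) had adjusted p between 0.219 and 0.231, and Xrcc1 (0.35, SE 0.18) and Fanca (1.24, SE 0.64) had 0.303 and 0.311. The median difference was 0.25 over the replication-linked genes and -0.09 over the others, and the former was -0.16 without cKO 6. Among the p53-induced genes Btg2 (1.22, SE 0.23, adjusted p = 0.0293) and Plk3 (1.13, SE 0.21, adjusted p = 0.0296) differed between the models, calls that were lost in 6 and 8 of the 12 fits without 1 heart. The models differ in age, allele, line and presence of Cre at once, which cannot be told apart.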

How the data were processed

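RNA-Seq of whole hearts from 12 mice in 4 groups of 3 was analysed. The authors isolated RNA from flash-frozen hearts, prepared polyA libraries and deposited raw counts per gene, made with HTSeq from reads that had been trimmed (Trim Galore) and mapped with STAR 2.7.2b to the mm10 genome. The strand setting is not given in the sources used here. Samples were grouped by the deposited labels. No 2 replicates held identical counts.

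Tests were run on the counts with edgeR 4.0.16 under R 4.3.3 (TMM, filterByExpr, robust quasi-likelihood test, Benjamini-Hochberg adjustment over all genes tested), and each pairwise comparison used its own 6 hearts. The standard error was the log2 fold change divided by the root of the test statistic. The members and lists were chosen with earlier results of these data known. Fold changes are given for members with an adjusted p under 0.05 or, where fewer than 8 passed, the 8 with the smallest p, and for up to 4 genes per wider list; other members are given by levels or ranges. Alternatives used DESeq2 1.42.0, limma-voom (limma 3.58.1), RLE factors, library totals, other filters, dispersions and fits, a Y-linked covariate, a fold threshold of 2, stricter member groups, the replicate number as a block and each heart left out, and legacy dispersions, added after seeing the data. Scripts were tested on simulated data. The values of 1 gene of the wider lists are not reported here. Floors cover counting error only.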

Additional observations from a re-analysis of the deposited data

Results flagged for a closer look

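Rad50 was singled out because its effect differed between the 2 models by a test of the difference itself. The difference in log2 fold change, cKO minus KI/KI, was -0.51 (SE 0.12, edgeR adjusted p = 0.04995). All 3 KI/KI hearts, at 29.7 to 34.5 CPM, lay above all WT hearts, at 23.7 to 25.9 CPM, and the cKO hearts, at 36.1 to 39.9 CPM, lay at or below the floxed hearts, at 39.8 to 45.8 CPM. Neither effect passed on its own in edgeR. The share of members called, 1 of 41, is close to the 2.43% of all genes called, and the call was lost in 10 of the 12 fits without 1 heart, with limma-voom (adjusted p = 0.0558), with RLE factors (adjusted p = 0.0528), without the filter (adjusted p = 0.066) and with the replicate block (adjusted p = 0.134).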

How the results depend on the processing

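In KI/KI against WT, DESeq2 called 1 member higher, and the median of the cell-cycle-independent genes was 0.09 with library totals and -0.02 to 0.05 with 1 heart left out. In cKO against floxed, the members called higher were 6 with DESeq2, 4 with all 12 hearts in 1 fit and 4 with a Y-linked covariate. They were 0 with limma-voom, 0 with library totals, 0 without the filter and 0 to 4 with 1 heart left out. The Y-linked level was -4.65 in cKO 4 and 5.55 to 6.11 in the other P1 hearts, so this covariate mainly sets cKO 4 apart. The fit without cKO 4 also called 4 members higher. Members called lower were 2 with DESeq2, library totals, a minimum of 10 counts or all 12 hearts in 1 fit, and 0 to 2 with 1 heart left out. In adult WT against P1 floxed, library totals left 1 member higher and 33 lower, the Y-linked covariate 0 and 16, and the 2-fold threshold 0 and 14. The Y-linked level separates these 2 groups by itself, so the calls lost with that covariate decide nothing. Library totals gave medians of -2.54 and -0.51 there and turned Xrcc5 to -0.02 and Babam1 to -0.03, which moved with the all-gene median. In the difference between the models, 2 members were called lower with DESeq2, 0 with limma-voom, RLE factors, no filter or the 2-fold threshold, and 0 to 1 with 1 heart left out, and library totals gave the cell-cycle-independent genes a median of -0.24. Replicate numbers are shared by WT and floxed and by KI/KI and cKO hearts. Same-numbered WT and floxed hearts had correlations of deviations from -0.576 to -0.271, and same-numbered KI/KI and cKO hearts from 0.0789 to 0.245. Different-numbered hearts ran from -0.32 to 0.474 and from -0.359 to 0.205. With 3 hearts in each group these values cannot decide whether the numbers pair the hearts. With the replicate block 4 members were higher and 23 lower in the adult, and 0 were called in the difference between the models. Of the values for single genes, 1615 kept direction and side of the threshold, 138 lost and 22 gained a call, and 2 turned. Exo1 rests on 10 to 37 reads per adult heart.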

Other observations

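Of the 22 p53-induced genes 7 were higher and 7 lower in adult WT than in P1 floxed hearts, close to the 31.8% and 33.4% of all genes, so the count says nothing particular about the list. Ccng1, which encodes cyclin G1, stood at 457, 491 and 512 CPM in floxed and at 2070, 1980 and 1610 CPM in WT hearts (log2 fold change 1.95, SE 0.11, edgeR adjusted p = 3.61e-06). Sesn1 (1.49, SE 0.2, adjusted p = 0.000452) and Rrm2b, a subunit of ribonucleotide reductase made outside S phase (0.69, SE 0.09, adjusted p = 0.000283), were higher, and Ppm1d, a phosphatase that ends damage signalling (-0.86, SE 0.11, adjusted p = 0.000243), was lower. Mgmt, which removes alkyl groups from guanine, stood at 2.37, 3.24 and 3.24 CPM in floxed and at 6.91, 8.43 and 6.56 CPM in WT hearts (1.29, SE 0.17, adjusted p = 0.000312), whereas Rad18, the ligase that starts translesion synthesis (-1.97, SE 0.28, adjusted p = 0.000457), and the translesion polymerase Poli (-1.28, SE 0.15, adjusted p = 0.000129) were lower.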
